A study of Mus musculus with 18 samples.

Results

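The CELF proteins are RNA-binding proteins encoded by the genes Celf1 to Celf6. They were selected on an earlier result of these data, the rise of Celf5 with dose in the lung of mice given the 4PAH-Mix, and the remaining genes of the family were added to it. On the array, 14 probes carried a RefSeq accession of 1 of these 6 genes, out of 55681 probes tested and 20660 named genes. Each probe was kept on its own, with 3 for Celf1, 3 for Celf2, 1 for Celf3, 2 for Celf4, 3 for Celf5 and 2 for Celf6. Because the rise of Celf5 over the doses led to this choice, its differences between groups are described without a test. The other 5 genes were tested.

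The mice were male Muta™Mouse, a transgenic line whose transgene all 4 groups carried, and were about 12 weeks old. They were gavaged each day for 28 days with the 4PAH-Mix (benzo[a]pyrene, benz[a]anthracene, benzo[b]fluoranthene and chrysene) in olive oil, and lung was taken 72 h after the last dose. There were 5 vehicle mice given olive oil alone, 4 mice at the low dose of 12.5, 5 at the medium dose of 25 and 4 at the high dose of 50 (all in mg BaP equivalents/kg-bw/day). The question was how lung expression changed with dose. Whole-lung RNA of each mouse (Cy5) was hybridized to its own array against Universal Mouse Reference RNA (Cy3), a pool from 11 mouse cell lines, and values below are log2 ratios of lung over reference.

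CELF proteins bind GU-rich stretches of RNA through RNA recognition motifs. In the nucleus they regulate alternative splicing, and in the cytoplasm they act on the stability and translation of mRNA, in part by bringing the deadenylase Parn to their targets. Celf1 and Celf2 are known from many tissues, with Celf2 abundant in lymphocytes, heart and brain, whereas Celf3, Celf4, Celf5 and Celf6 are known mainly from the nervous system.

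Because Celf5 is the member whose level followed the dose, the sequence before its start sites is shown first. RefSeq (GRCm38.p6) gave 5 Celf5 start sites, all on the minus strand of chromosome 10, and the 250 bases before each were searched for the core bound by the aryl hydrocarbon receptor, GCGTG, on both strands and for the p53 half-site consensus. The window furthest upstream held 1 p53 half-site and no GCGTG, the one furthest downstream held 1 GCGTG and no p53 half-site, and the other 3 held neither. Both windows with a match are given 5′ to 3′ on the minus strand, with the match in capitals.
Celf5 start furthest upstream, chr10:81482700-81482949: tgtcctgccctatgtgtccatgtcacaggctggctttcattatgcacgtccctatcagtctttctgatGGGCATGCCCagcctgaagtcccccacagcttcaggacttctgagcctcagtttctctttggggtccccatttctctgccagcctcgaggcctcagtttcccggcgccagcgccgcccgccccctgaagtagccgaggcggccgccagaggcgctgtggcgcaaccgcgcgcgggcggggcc
Celf5 start furthest downstream, chr10:81472864-81473113: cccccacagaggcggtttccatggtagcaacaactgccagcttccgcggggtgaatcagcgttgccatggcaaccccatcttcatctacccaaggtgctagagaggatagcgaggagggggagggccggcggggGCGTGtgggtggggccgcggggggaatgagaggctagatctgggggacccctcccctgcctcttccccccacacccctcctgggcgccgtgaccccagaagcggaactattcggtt
Of 32851 such windows in the RefSeq table, 28.2% held GCGTG and 7.13% a p53 half-site. A match describes these letters and is not a site in use, and the arrays do not tell which start was used in lung.

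The median Cy5 signal of an array was 110 to 142, and 51.5% to 61.1% of its probes were well above background in Cy5. All 8 lung markers (such as Sftpc, a surfactant protein of alveolar type 2 cells) were above background on all 18 arrays. Of these 8, Pecam1, an endothelial adhesion molecule, was called at the high dose (log2 change 0.74, SE 0.12, limma adjusted p = 0.000597) and the medium dose, and the other 7 were called at no dose. All 4 groups were present on each of the 3 slides. Within a slide, arrays of 1 group shared 1 column, so column and dose cannot be told apart.

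Celf5 was read by 3 probes that differed in signal. Probe A_55_P1972948 was well above background in Cy5 on all 18 arrays, A_51_P125607 on 4 and A_55_P1972943 on 0. On A_55_P1972948, the normalized log2 ratio of lung to reference was below 0 in every mouse, and its group mean was higher at each successive dose. Before normalization, high-dose mouse 20 had more signal in the lung channel (737) than in the reference channel (626). The mean log2 ratio was -2.49 ± 0.25 (SD, n = 5) in vehicle mice, -1.85 ± 0.14 (n = 4) in low-dose mice, -1.26 ± 0.34 (n = 5) in medium-dose mice and -0.74 ± 0.44 (n = 4) in high-dose mice.

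The 5 vehicle mice had log2 ratios of -2.32, -2.25, -2.51, -2.48 and -2.90 on this Celf5 probe. The 4 low-dose mice had -1.675, -1.83, -2.03 and -1.85, and the 5 medium-dose mice had -1.47, -0.89, -1.34, -0.94 and -1.6746. All 13 exposed mice therefore lay above every vehicle mouse, and the lowest medium-dose mouse lay just above the highest low-dose mouse. The 4 high-dose mice had -0.21, -1.27, -0.86 and -0.63. The high-dose mouse with -1.27 fell within the range of the medium dose, and the other 3 lay above it.

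**Figure D1:**
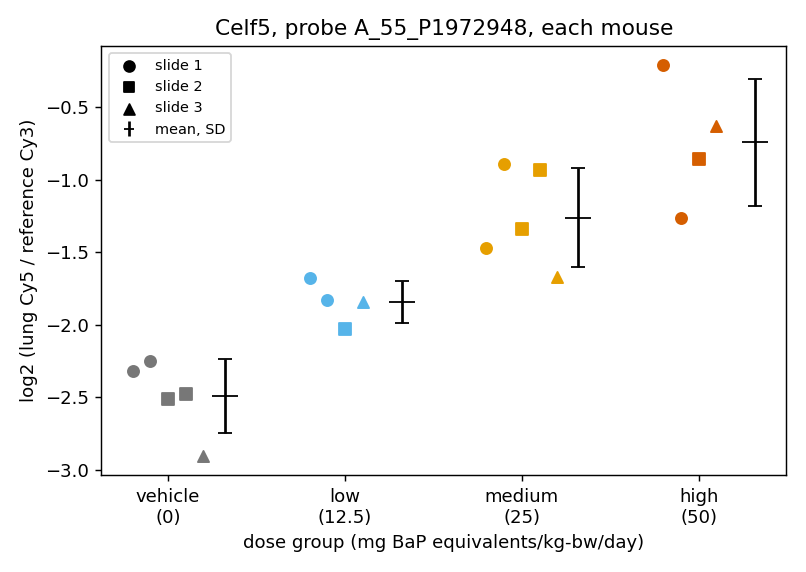
Log2 ratio of lung Cy5 to reference Cy3 for Celf5 probe A_55_P1972948 (y axis) in each of the 18 mice by dose group (x axis, mg BaP equivalents/kg-bw/day), with marker shape for the slide and bars for mean and SD. The group means climb from -2.49 in vehicle mice to -0.74 at the high dose, and the 13 exposed mice all lie above the 5 vehicle mice.

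Relative to the vehicle, Celf5 on this probe was 1.57-fold higher in low-dose mice (log2 change 0.65, SE 0.18), 2.34-fold in medium-dose mice (1.23, SE 0.17) and 3.36-fold in high-dose mice (1.75, SE 0.18). The low-dose change was 37.0% and the medium-dose change 70.3% of the high-dose change on the log2 scale. Among all 27235 named probes, the high-dose rise ranked 8 in size. Within slides, the high dose stood above the vehicle by 1.54, 1.63 and 2.27, so the difference was present on each slide. The groups also did not overlap for 2.81%, 4.36% and 8.11% of 55595 probes with rising dose, and by adjusted p and fold change 0.0898%, 0.726% and 1.2% of 55681 probes were called at those doses. The choice of Celf5 used these comparisons, so nothing is read from its place among these probes.

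Between the medium and the low dose, the log2 difference of Celf5 on A_55_P1972948 was 0.58 (SE 0.18). The lowest medium-dose mouse (-1.6746) and the highest low-dose mouse (-1.675) were almost level. Between these doses 0 of 55681 probes were called. The rise over the doses also led to the choice of Celf5, so nothing is read from this difference. Within slides it was 0.57, 0.89 and 0.17. From the medium to the high dose the log2 difference was 0.52 (SE 0.18).

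The difference lay in the lung channel. After subtraction of the local background, the mean Cy5 intensity of A_55_P1972948 was 61.1 ± 11.3 in vehicle mice, 145 ± 56.4 in low-dose, 236 ± 42.7 in medium-dose and 456 ± 216 in high-dose mice (SD). The reference Cy3 intensity of the same spot was 586, 601, 592 and 628 in these groups. Net of background, the lung signal at the high dose was thus 7.46 times that of the vehicle mice, against 1.07 times for the reference. This is a wider gap than the 3.36-fold of the ratios, which are not background-subtracted. The scanner software's ratios, which are, gave log2 changes of 1.37, 2.19 and 2.87 at the 3 doses.

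**Figure D2:**
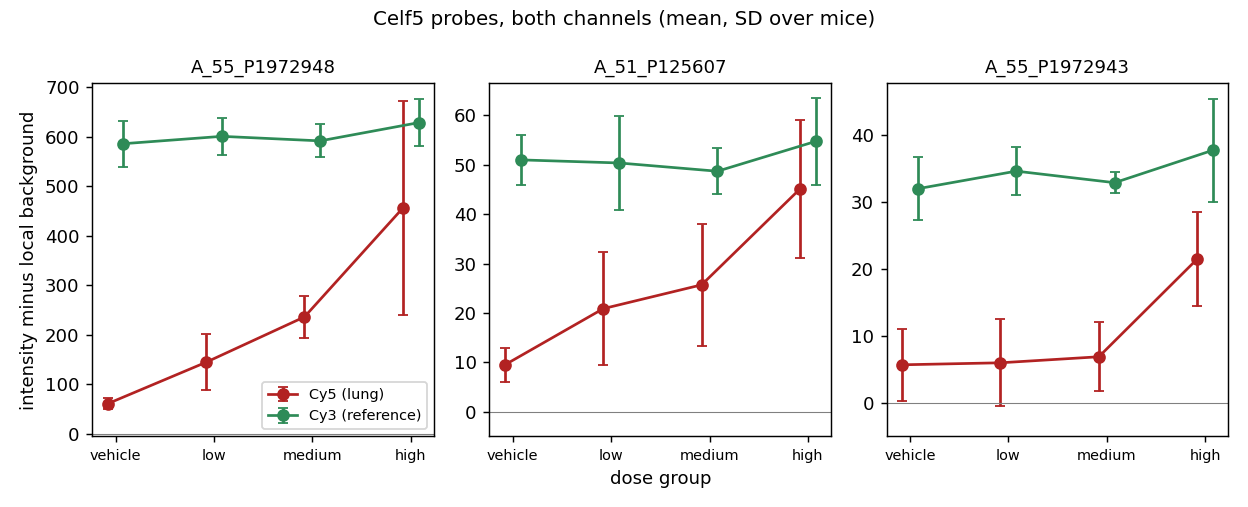
Mean intensity minus local background (y axis, points with SD over mice) in the lung Cy5 and the reference Cy3 channel for the 3 Celf5 probes, by dose group (x axis). On each probe the lung channel is highest at the high dose (456, 45.1 and 21.5) while the reference channel stays within 586 to 628, 48.7 to 54.8 and 32.0 to 37.8.

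The other Celf5 probes gave dim signals. On A_51_P125607, which was well above background on 0 of 5 vehicle, 1 of 4 low-dose, 1 of 5 medium-dose and 2 of 4 high-dose arrays, log2 ratios ran from -0.53 to -0.30 in vehicle mice and from -0.14 to 0.07 at the high dose, with no overlap. Low-dose mice ranged from -0.41 to -0.02 and medium-dose mice from -0.55 to 0.14, so both overlapped the vehicle. The log2 changes from the vehicle were 0.15, 0.29 and 0.40 with rising dose (SE 0.11 at the high dose). The high-dose mean normalized log2 Cy5 was 6.57. Against a vehicle value raised from 6.13 to the lowest signal above background of any probe (6.26), this gave 1.24-fold. That value is not a lower bound for Celf5. This probe itself was not well above background at a Cy5 of 109 and 110.5 in high-dose mice 18 and 17. Without swapped dyes it is also open to dye bias, so the size of the change on this probe is not given.

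On A_55_P1972943, not well above background on any array, the log2 ratio was -0.33 to 0.02 in vehicle mice, -0.43 to 0.10 in low-dose, -0.26 to -0.05 in medium-dose and -0.06 to 0.26 in high-dose mice. These groups overlapped, and no fold is given where both groups lie below background. Across the 18 arrays, which share the reference RNA and the dose groups, the log2 ratio of A_55_P1972948 had a Pearson r of 0.71 with A_51_P125607 and of 0.51 with A_55_P1972943.

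Outside Celf5, 0 of the 11 probes for Celf1, Celf2, Celf3, Celf4 and Celf6 were called at any dose, in 33 tests with limma, beside the shares of all probes given above. At an unadjusted p under 0.05 there were 0 in the low-dose, 2 in the medium-dose and 2 in the high-dose comparison, beside 8.01%, 15.3% and 15.7% of all probes. The 8 probes for Celf1, Celf2 and Celf4 were above background on all arrays, and their log2 changes ran from -0.30 to 0.08. Their medians were -0.09, -0.17 and -0.15 at the 3 doses, against 0.01, 0.02 and 0.02 over all named genes, dim ones included. With median centring, the high-dose changes of these 8 probes ran from -0.14 to 0.21, so the lower high-dose median depended on the normalization. For these 8 probes no 95% interval reached beyond -0.46 or 0.35, whereas the fold change limit of 1.5 lies at 0.58, and the scanner software's background-subtracted ratios gave changes from -0.32 to 0.18. The Celf3 and Celf6 probes were near background and are given apart.

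**Figure D3:**
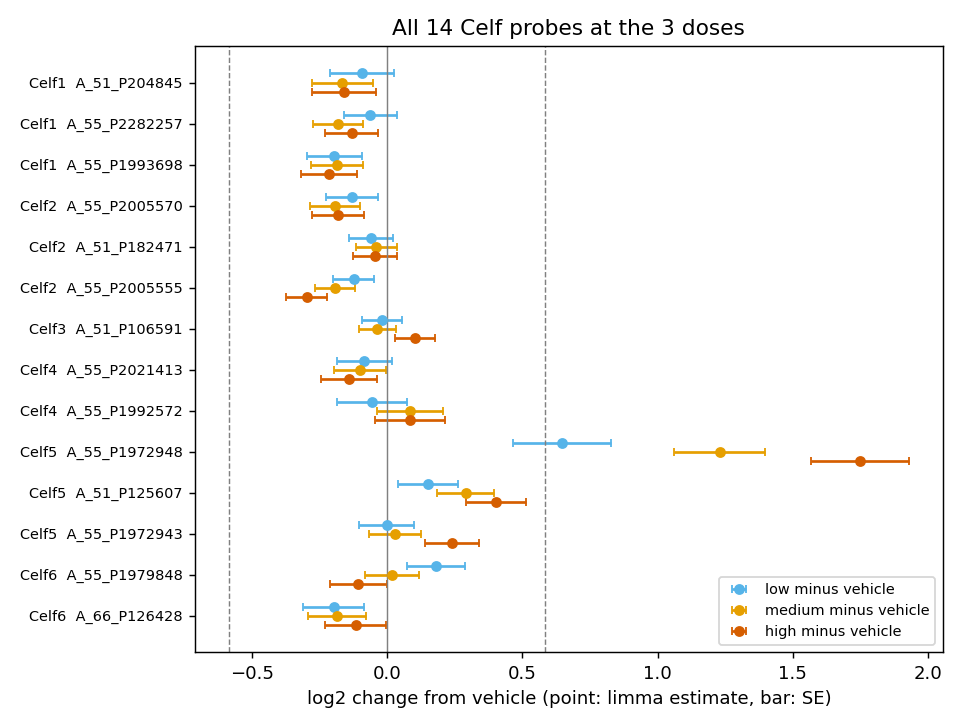
Log2 change from vehicle (x axis, limma estimate with SE) of all 14 Celf probes (y axis) at the low, medium and high dose, with dashed lines at the 1.5-fold limit of 0.58 in either direction. Celf5 probe A_55_P1972948 passes that line at all 3 doses (0.65, 1.23 and 1.75), and the 11 probes of the other genes lie between -0.30 and 0.18. Without background subtraction the changes of dim probes are compressed. In the scanner software's ratios Celf3 had 0.37 and Celf6 A_55_P1979848 -0.59 at the high dose. Celf5 A_55_P1972943 and Celf6 A_66_P126428 were above background on 0 arrays, so their plotted changes are not read.

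Celf2, which regulates splicing in lymphocytes and neurons, had 3 probes above background on all arrays. The largest change was on A_55_P2005555, which is annotated to another RefSeq transcript (NM_001110229) than the remaining pair (NM_010160). Its log2 ratios were 0.19, 0.06, -0.02, 0.11 and 0.33 in vehicle mice and -0.17, -0.28, -0.13 and -0.07 at the high dose. All 4 high-dose mice thus lay below all 5 vehicle mice. Low-dose mice ran from -0.05 to 0.05 and overlapped the vehicle range. Medium-dose mice ran from -0.16 to 0.05 and overlapped both the vehicle and the high-dose range. The high-dose change was -0.30 (SE 0.08, limma adjusted p = 0.0278, two-sided exact permutation p = 0.0159), which is under the fold change limit and was not called. Within slides it was -0.35, -0.17 and -0.41.

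This Celf2 change passed the adjusted p of 0.05 in 10 of 13 alternative settings, with limma adjusted p from 0.0164 to 0.932. Among these passes, the Aquantile normalization between arrays and the removal of the fold change limit could not alter the adjusted p. It did not pass with median centring (log2 change -0.14, adjusted p = 0.932), with the Cy5 channel alone (-0.22, 0.0634) or with vehicle and high-dose mice fitted alone (-0.30, 0.0707). It also did not pass without vehicle mouse 1 (adjusted p = 0.0663), vehicle mouse 5 (0.0742), or high-dose mouse 16 (0.0788), 17 (0.114) or 18 (0.0534).

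On the other Celf2 probes, the high-dose log2 change was -0.18 (SE 0.10, adjusted p = 0.383) for A_55_P2005570 and -0.05 (SE 0.08, adjusted p = 0.870) for A_51_P182471. Their groups overlapped: A_55_P2005570 ran from 0.29 to 0.62 in vehicle and from 0.18 to 0.42 in high-dose mice, and A_51_P182471 from 0.03 to 0.46 and from 0.11 to 0.32. The gap between A_55_P2005555 and the mean of these probes within each array widened from -0.25 ± 0.20 (SD, n = 5) in vehicle to -0.43 ± 0.16 (n = 4) in high-dose mice, a change of -0.18 that did not exceed the spread between mice (two-sided exact permutation p = 0.167). A difference in response between the Celf2 probes was therefore not shown. Across arrays, A_55_P2005570 and A_51_P182471 had a Pearson r of 0.76, and A_55_P2005555 had 0.37 and 0.04 with them.

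**Figure D4:**
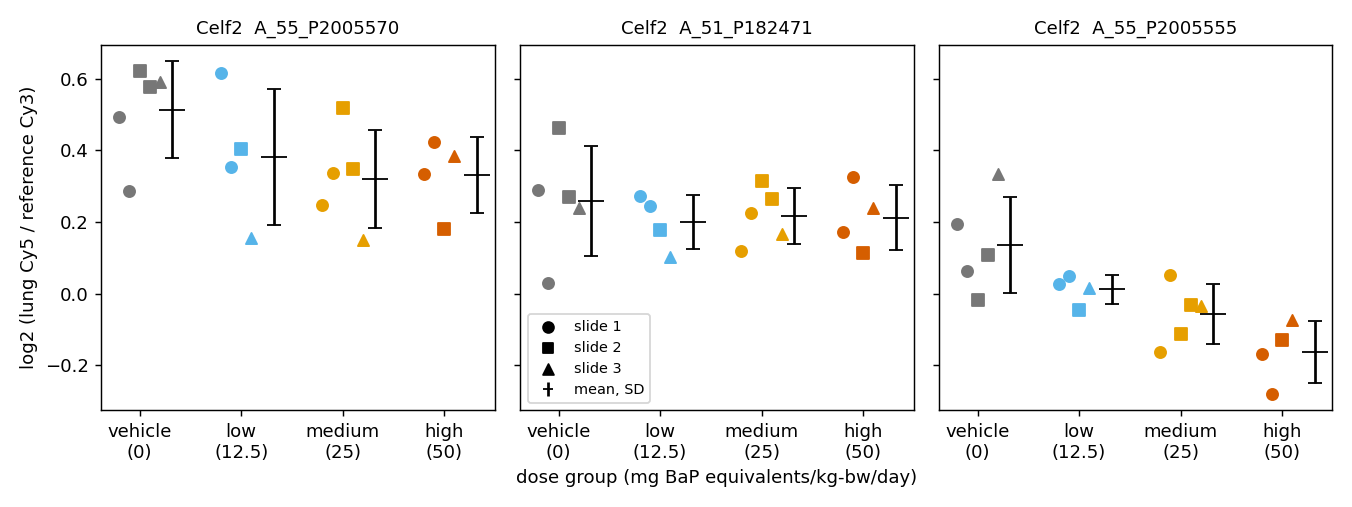
Log2 ratio of lung Cy5 to reference Cy3 (y axis) for the 3 Celf2 probes in each mouse by dose group (x axis, mg BaP equivalents/kg-bw/day), with marker shape for the slide and bars for mean and SD. On A_55_P2005555 the 4 high-dose mice (-0.28 to -0.07) lie below the 5 vehicle mice (-0.02 to 0.33), while on the other probes the groups overlap.

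Lymphocyte markers were followed beside Celf2. All 16 were measured, 13 were above background on all arrays and the other 3 on some of them, and their mean log2 ratio was 0.79 to 1.49 in vehicle mice and 1.02 to 1.1 at the high dose. At the high dose 8 were higher and 8 lower, with a median log2 change of -0.06. Gzma, a granule protease of cytotoxic lymphocytes, fell by 2.25 at the high dose (SE 0.41, limma adjusted p = 0.00208). The B cell genes Cd79b (0.70, limma adjusted p = 0.0419) and Ms4a1 (0.70, limma adjusted p = 0.0258) were called at the medium dose only. Their low-dose and high-dose changes were of like size, 0.56 and 0.54 for Cd79b and 0.61 and 0.63 for Ms4a1. In all, 0, 2 and 1 of the 16 markers were called with rising dose, beside 0.169%, 1.15% and 1.8% of all named genes with a called probe. The part of the lymphocyte markers in the Celf2 values was not tested.

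Celf1, the member best known for driving decay of GU-rich mRNAs, had 3 probes above background on all arrays. At the high dose its log2 changes were -0.16 (SE 0.12, adjusted p = 0.585) on A_51_P204845, -0.13 (SE 0.10, adjusted p = 0.597) on A_55_P2282257 and -0.21 (SE 0.10, adjusted p = 0.315) on A_55_P1993698. On the last of these, vehicle mice had 0.00, -0.08, -0.19, -0.22 and -0.10 and high-dose mice -0.26, -0.29, -0.43 and -0.34. The high-dose mice lay below all vehicle mice (two-sided exact permutation p = 0.0159), but medium-dose mice ran from -0.57 to 0.00 across the vehicle range, and the change did not pass the adjusted test. Together with Celf2 A_55_P2005555, this made 2 of the 11 probes with no overlap at the high dose, beside 8.11% of all probes.

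The genes known mainly from the nervous system were measured at low signal or below the reference. Celf4 lay below the reference on both of its probes, each above background on all arrays. A_55_P2021413 had a mean log2 ratio of -1.39 ± 0.17 (SD, n = 5) in vehicle and -1.53 ± 0.16 (n = 4) in high-dose mice, and A_55_P1992572 had -2.33 ± 0.13 and -2.25 ± 0.26. The high-dose changes were -0.14 (SE 0.10, adjusted p = 0.579) and 0.08 (SE 0.13, adjusted p = 0.846), and the groups overlapped on both probes.

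Celf3, read by 10 spots of A_51_P106591 on each array, was above background on 16 arrays, with a log2 ratio of -0.01 to 0.15 in vehicle mice and 0.04 to 0.31 at the high dose. Its high-dose change was 0.10 (SE 0.07, adjusted p = 0.568) without background subtraction and 0.37 (SE 0.18, adjusted p = 0.337) in the scanner software's ratios. Celf6 A_55_P1979848 was above background on 11 arrays, among them 3 of 5 vehicle and 2 of 4 high-dose arrays, and A_66_P126428 on 0. The first ran from 0.25 to 0.67 in vehicle mice and from 0.05 to 0.54 at the high dose, and the second from -0.06 to 0.36 and from -0.30 to 0.30. The high-dose change on A_55_P1979848 was -0.11 (SE 0.11, adjusted p = 0.721), and -0.59 (SE 0.37, adjusted p = 0.472) in the scanner software's ratios. For A_66_P126428 no change is given, since both groups lay below background.

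Neuronal and neuroendocrine markers were set beside Celf5. Of 15 markers measured, 0 were called at any dose, beside 0.169%, 1.15% and 1.8% of all named genes with a called probe at the 3 doses, and 9 were above background on all arrays. The neurofilament genes Nefl and Nefm were above background on 0. The mean log2 ratio over the 15 markers was 0.54 to 0.87 in vehicle and 0.74 to 0.96 in high-dose mice, so the groups overlapped. At the high dose 11 were higher and 4 lower, with a median log2 change of 0.23 against 0.02 over all named genes. The change closest to a call, named after its value was seen, was that of Stmn2, a neuronal microtubule regulator (0.42, SE 0.11, limma adjusted p = 0.0392), under the fold change limit. The medians at the low and medium dose, 0.05 and 0.02, stood beside Celf5 changes of 0.65 and 1.23. Their part in the Celf5 values was not tested.

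Among 26 other splicing regulators, 1 gene was called at the high dose, beside 1.8% of all named genes with a called probe. This was Ptbp1, a repressor of exon inclusion, on 1 of its 2 probes. On A_55_P2171623 it had log2 changes of -0.41, -0.69 and -0.86 with rising dose (SE 0.09 at the high dose), with limma adjusted p of 0.0695, 7.05e-05 and 5.79e-06. On the brighter probe A_51_P462692 the high-dose change was -0.05 (SE 0.08, adjusted p = 0.842), so the probes disagreed. The list's median at the high dose was -0.04, with 10 genes higher and 16 lower. Rbfox3, a neuronal splicing regulator named after its value was seen, had -0.56 (SE 0.15, adjusted p = 0.0293), just short of the fold change limit.

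Among 15 transcripts known as targets or partners of CELF proteins, 1 gene was called at each dose, beside the same 0.169%, 1.15% and 1.8% of named genes. Cdkn1a, the cyclin-dependent kinase inhibitor p21 whose translation Celf1 is known to raise, rose by 1.39, 2.09 and 2.47 on A_51_P363947 (SE 0.13 at the high dose, limma adjusted p = 2.08e-10) and by 1.84, 2.63 and 2.96 on A_55_P1986282. Parn, the deadenylase that CELF proteins bring to mRNAs, had 0.26, 0.49 and 0.47 (SE 0.09, adjusted p = 0.00376 at the high dose), named after its values were seen and under the fold change limit. The remaining 13 were not called at any dose, and the list's median change at the high dose was 0.05, with 8 higher and 7 lower. Whether the transcripts bound by CELF proteins were spliced or decayed differently is not measured by these probes.

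Genes near Celf5 on the chromosome were also read. On the side of higher coordinates lie Ncln, S1pr4 and Gna15, whose high-dose log2 changes were -0.05 (SE 0.08), 0.11 (SE 0.15) and -0.14 (SE 0.08), and none of the 3 was called. On the side of lower coordinates Gm16104, Mir1191b and Gm51811 had no named probe. The log2 change of 1.75 for Celf5 thus stood beside measured neighbours within 0.14 of the vehicle.

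The genes whose log2 ratios followed Celf5 A_55_P1972948 most closely over the 18 arrays were ranked by Pearson r among 20622 genes, each by its brightest probe. Zmat3, a zinc finger RNA-binding protein, came first (r = 0.97), then Mmrn2, an endothelial matrix protein (0.95), and Inka2, an inhibitor of a p21-activated kinase (0.94). Lrrc75b, Ahrr (the repressor of the aryl hydrocarbon receptor), Aen (a nuclease), Phlda3 (an inhibitor of Akt), Tulp4, Cpped1 and Ccng1 (cyclin G1) followed with 0.93 to 0.91. These values describe 18 arrays that share the dose groups and the reference RNA, and no test is attached to them.

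With the group means removed, r with Celf5 was 0.80 for Zmat3, 0.71 for Mmrn2, 0.70 for Inka2, 0.45 for Ahrr and 0.33 for Ccng1. In the high-dose group, the mouse with the highest Celf5 (-0.21) also had the highest Zmat3 (0.04), and the mouse with the lowest Celf5 (-1.27) had the lowest Zmat3 (-0.31). The mice between them went the other way. Mouse 20 had the higher Celf5 (-0.63) and a Zmat3 of -0.22, and mouse 18 had -0.86 and 0.005. The high-dose rise of Celf5, 1.75, compared with 1.23 for Zmat3, 1.96 for Mmrn2 and 1.45 for Ahrr. Zmat3 and Mmrn2 were above background on all 18 arrays but Ahrr on 14, so its r and its rise rest in part on signal near background.

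**Figure D5:**
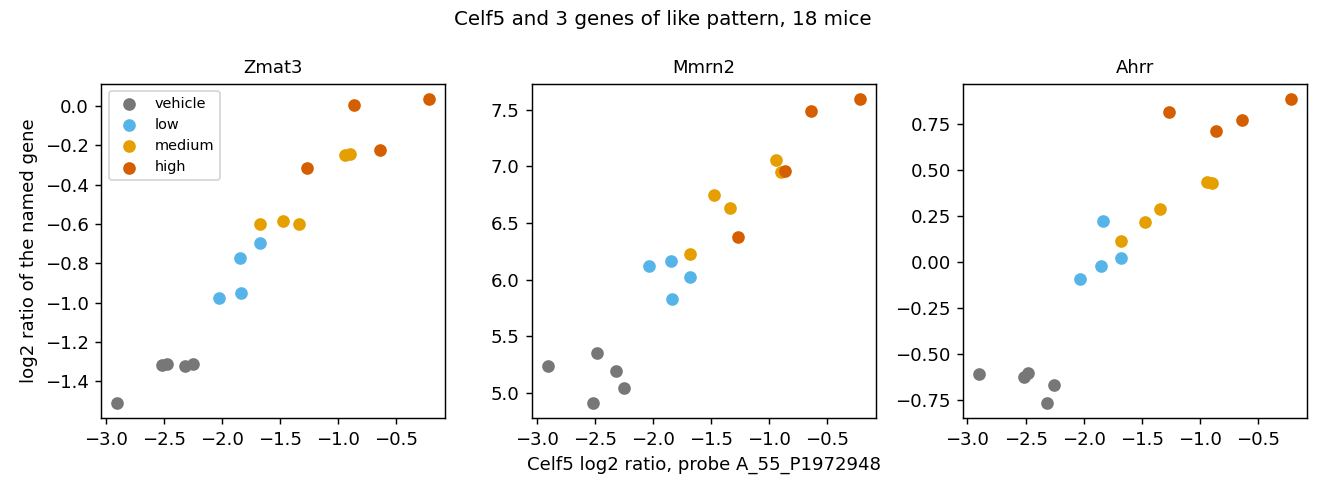
Log2 ratio of Zmat3, Mmrn2 and Ahrr (y axes) against that of Celf5 A_55_P1972948 (x axes) in the 18 mice, coloured by dose group. The vehicle mice sit at the lower left of each panel, and Pearson r is 0.97, 0.95 and 0.93. The high-dose mouse with Celf5 of -1.27 lies within the medium-dose range of Celf5, and the medium-dose and high-dose mice overlap on the Zmat3 and Mmrn2 axes. The Ahrr probe was above background on 14 of the 18 arrays.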

How the data were processed

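Lung RNA (Cy5) and Universal Mouse Reference RNA (Cy3) were labelled from 200 ng of total RNA each and hybridized to 2-colour Agilent arrays, without dye swaps. The authors deposited median intensity values of both channels and of local background for each spot, not normalized, and a log10 ratio made by the scanner software after background subtraction. The authors also deposited a table of normalized log2 ratios, used here as an alternative.

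Following the study's methods, log2 ratios of the median intensities without background subtraction were normalized by loess within arrays (R 4.3.3, limma 3.58.1). Omitting background subtraction compresses ratios of dim spots. Outlier spots and control spots had no weight and were left out, and replicate spots of a probe were averaged. All 4 groups were fitted together with limma, which stands in for the MAANOVA test of the methods. P-values were adjusted by Benjamini-Hochberg within each comparison, with calls made at an adjusted p of at most 0.05 and a fold change of at least 1.5. Two-sided exact permutation tests over mice were run on single values. The fit was tested on simulated data. Gene names and start sites came from RefSeq (GRCm38.p6).

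The members and lists were chosen with earlier results of these data known. Named genes were all Celf probes, list members called at any dose, the 3 neighbours of Celf5 on each side and the 10 genes most like it. Exceptions are marked. Lists were splicing regulators, CELF targets, neuronal and neuroendocrine, lymphocyte and lung markers. Alternatives are given at the end. Labels name separate mice as replicates, and their number limits the precision.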

Additional observations from a re-analysis of the deposited data

Results flagged for a closer look

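In 56 groups of 4 or 5 mice (14 Celf probes in 4 groups), 3 held a mouse whose gap to the next was large against the range of its group, and chance gives about 1 in 20. On Celf1 A_51_P204845, the high-dose mouse 18 had a log2 ratio of -0.81, with the next at -0.27. On Celf6 A_55_P1979848, the low-dose mouse 10 had 0.79, with the next at 0.52, and the medium-dose mouse 15 had 0.57, with the next at 0.40. No mouse stood apart on a Celf5 probe.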

How the results depend on the processing

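Of 464 values recomputed for 15 results under 13 alternatives and with each of 18 mice left out, 440 kept their direction and their side of the threshold, or their size. Part of these could not differ. The Aquantile normalization between arrays left every log2 ratio as it was. A change in the p adjustment, the fold limit, the probes kept or the groups fitted cannot move a log2 change. Nor can leaving out a mouse of a group outside the comparison. The count is therefore no measure of robustness. With the scanner software's ratios, Celf5 A_55_P1972948 moved to 1.37, 2.19 and 2.87 with rising dose, and 2 splicing regulator genes were called at the high dose. Across the other 12 alternatives its high-dose change was 1.66 to 1.77. Its medium minus low difference was 0.53 to 0.82 under the 13 alternatives and 0.49 to 0.69 without single mice. With median centring, the high-dose changes of the brightest probes reversed to 0.0685 for Celf1, 0.0619 for Celf2 and 0.0672 for Celf4, none called before or after, and 0 splicing regulators were called. With the Cy5 channel alone, Celf6 reversed to 0.0115 and 2 splicing regulators were called. With no fold change limit, 1 other Celf probe, 2 splicing regulators and 3 Celf targets were called at the high dose. The cause was not tested. Without single mice, 1 to 2 splicing regulators were called (2 without vehicle mouse 3 or 5 or high-dose mouse 17), 0 other Celf probes and 1 Celf target, and the Celf5 change ran from 0.54 to 0.71, 1.13 to 1.33 and 1.57 to 1.92 at the 3 doses. Celf6 A_55_P1979848 was among no filtered probes, so the filter on dim probes (29505 probes left) gave no value for it. No paired analysis was possible because the mice of different groups carry separate numbers. Signal over background limits Celf3, Celf6 and the dimmer Celf5 probes, for which small changes were not detectable.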
